A study of Oryzias latipes with 50 samples.

Results

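Creatine synthesis, transport and kinase genes were followed over 2 years in the brain of medaka (Oryzias latipes), a small fish of temperate fresh water. Members were taken from the deposited table by symbol or by gene description, and 12 of its 23455 genes met the rule: the synthesis genes gatm and gamt, the transporter genes slc6a8 and LOC101159742, and 8 creatine kinase genes. The libraries came from a block of ventral telencephalon, hypothalamus and pituitary, cut at around 8 pm from fish living outdoors in Okazaki, Japan, without any experimental treatment. There were 2 libraries on each of 25 dates from September 2015 to September 2017, 50 in all, and a sampling month is the only group the labels give. Neither the number of fish behind a library nor their sex is stated in the labels, so p-values measure the spread between dates, and in the fits with libraries as separate samples also that between libraries of a date. In a bulk tissue block, fewer cells of a type and less RNA per cell cannot be told apart, and neither can day length and water temperature, which both follow the calendar outdoors.

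Creatine carries the high-energy phosphate of ATP within cells. Glycine amidinotransferase (gatm) joins arginine and glycine to guanidinoacetate, and guanidinoacetate N-methyltransferase (gamt) methylates that product to creatine with S-adenosylmethionine as the methyl donor. The sodium- and chloride-dependent transporter SLC6A8 brings creatine into cells, and in rat brain the synthesis enzymes are found largely in different cells. Creatine kinases then move phosphate between ATP and creatine: the B-type (brain) and M-type (muscle) enzymes in the cytosol, and the U-type (ubiquitous) and S-type (sarcomeric) enzymes in mitochondria.

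Values are FPKM, fragment numbers scaled by transcript length and library size, so levels of different genes can be set side by side per length. FPKM summed to between 278558 and 341666 per library, and read totals were not used here. The libraries of the same date correlated with a median r of 0.9816 across genes, which are not independent replicates, and those of different dates with a median of 0.9499. All 5 hypothalamic, 7 pituitary and 7 ventral telencephalic marker genes matched averaged at least 1 FPKM. The summed level of the pituitary markers ran from 3197 to 8519 FPKM on the 6 dates of June to August and from 2260.2 to 3224 FPKM on the 6 dates of December to February, and the part of this in the results below was not tested.

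The levels of the members spanned a wide range. The B-type kinase LOC101167262 was highest, with a mean of 260 ± 63.0 FPKM (SD, n = 25 dates), followed by ckb with 167 ± 22.9 and the mitochondrial U-type kinase LOC101164721 with 52.5 ± 13.2. The creatine transporter 1 gene LOC101159742 averaged 41.2 ± 9.80 FPKM, 5.2 times the level of slc6a8 (7.93 ± 1.94). LOC101167262, ckb, LOC101164721 and LOC101159742 kept this order on 25 of 25 dates, and LOC101159742 lay above gamt on each of them. Synthesis genes stood lower, gamt at 13.1 ± 7.71 and gatm at 12.1 ± 6.32 FPKM, and their order was not fixed: gamt was above gatm on 13 dates and below it on 12. The gatm level exceeded that of slc6a8 on 17 of 25 dates. Further down, slc6a8 lay above the M-type kinase LOC101163677 (5.00 ± 1.96 FPKM) on 23 dates, and LOC101163677 above a further U-type kinase, LOC101156742 (2.84 ± 1.29), on 20. These 9 genes passed the minimum mean of 1 FPKM and were tested. The other 3 did not pass, so they were not among the genes tested and are described here by their values: the S-type kinase LOC101158039 at 0.62 ± 0.25 FPKM, the M-type kinase LOC101166239 at 0.34 ± 0.40 and the M-type-like gene LOC101169907 at 0.034 ± 0.035, listed at 0 in 31 of 50 libraries.

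The synthesis genes moved in opposite directions over the year. In June to August gamt stood at 14.5 FPKM on its lowest date, 22.0 at the median and 30.2 on its highest date, against 2.98, 4.40 and 6.08 FPKM in December to February. Each of the 6 summer dates exceeded every winter date, though the share of all genes tested that separate so was not computed, here or below. The mean rose from 4.37 ± 1.06 FPKM in winter to 21.7 ± 5.50 in summer (SD, n = 6 dates each), a difference of 2.06 ± 0.27 (SE) in log2(FPKM + 1) by limma (adjusted p = 1.88e-06), which ranks 58 by size among 16493 genes tested. For gatm, which makes the substrate of gamt, the summer dates had a lowest value of 1.62 FPKM, a median of 4.94 and a highest of 9.39, and the winter dates 14.6, 18.4 and 23.3 FPKM. All 6 summer dates lay below every winter date. The mean was 5.61 ± 2.85 FPKM in summer and 18.5 ± 3.46 in winter, and the log2 difference was -1.67 ± 0.32 (adjusted p = 0.000128).

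The extremes of both genes fell in the second year. In August 2017 gamt was at 29.4 and 31.1 FPKM in the libraries of that date and gatm at 1.5 and 1.73. In January 2017 gamt was at 2.93 and 3.03 FPKM and gatm at 19.9 and 17.1. The gatm peak came later, in March 2017, with a date mean of 24.8 FPKM. The ratio of gamt to gatm thus ran from 0.161 in January 2017 to 18.7 in August 2017. On the 6 summer dates gamt was between 1.54 and 18.7 times gatm, and on the 6 winter dates gatm was between 3.39 and 6.20 times gamt. On the log2 scale the SD between libraries of a date was 0.22 for gamt and 0.17 for gatm, and that between date means 0.88 and 0.83. The widest gap within a date was that of gamt in June 2017, with libraries at 19.3 and 9.61 FPKM.

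**Figure D1:**
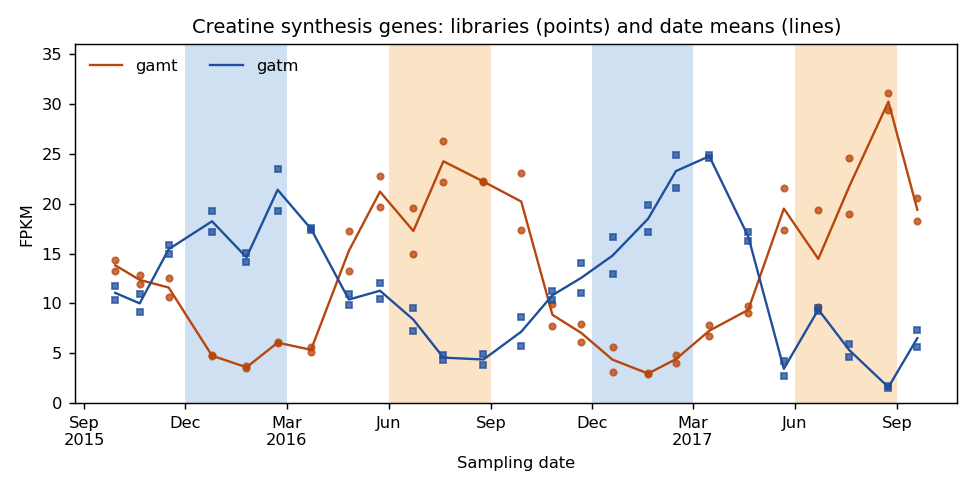
FPKM (vertical axis) of gamt (circles) and gatm (squares) on each of the 25 sampling dates (horizontal axis). Points are libraries, lines join the date means, blue bands mark December to February and orange bands June to August. The lines cross in spring and autumn, with gamt above gatm on all 6 summer dates and below it on all 6 winter dates.

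An annual cosine and sine curve described 6 of the 9 tested members (adjusted p under 0.05 by limma's F test), against 53.4% of all genes tested. The fitted range from trough to peak on the log2 scale was 2.33 ± 0.16 for gamt, with its peak on 27 July (adjusted p = 2.66e-10), and 1.95 ± 0.24 for gatm, with its peak on 4 February (adjusted p = 1.18e-06). On the dates to June 2016 alone, which hold no July or August, the range of gatm was 1.13 ± 0.18 (adjusted p = 0.00535). Of the others, LOC101164721 had a range of 1.01 ± 0.08 and a peak on 21 July, LOC101159742 0.90 ± 0.10 and 22 July, and slc6a8 0.73 ± 0.13 and 29 July. The median range over all genes tested was 0.36. Among the 6 called members only gatm had its fitted peak in winter.

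The creatine transporter genes were higher in summer. LOC101159742 had summer dates between 45.2 and 50.5 FPKM with a median of 47.3, and winter dates between 24.6 and 30.5 with a median of 25.5. The groups did not overlap, and the log2 difference was 0.81 ± 0.10 (adjusted p = 1.41e-06). For slc6a8 the summer dates ran from 8.68 to 11.2 FPKM with a median of 8.96, and the winter dates from 3.98 to 7.49 with a median of 5.16. All 6 summer dates again lay above all winter dates, with a log2 difference of 0.76 ± 0.12 (adjusted p = 9.34e-06). Whether the seasonal difference was unequal between the transporter genes was not tested. Summed, the transporter genes amounted to 57.3 ± 1.93 FPKM on the summer dates and 32.1 ± 2.74 on the winter dates.

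LOC101159742 did not follow a plain annual wave. It reached its highest date mean, 55.3 FPKM, already in April 2016, was at 52.5 in May 2016 and 45.2 in June 2016, and stood at 51.5 in September 2017. A wave with a period of 6 months, added to the annual one, was called for LOC101159742 (range 0.43 ± 0.06, adjusted p = 0.00125) and LOC101164721 (0.27 ± 0.06, adjusted p = 0.0195), 2 of 9 members against 8.55% of all genes tested. Without the date of April 2016 the call of LOC101164721 was lost (adjusted p = 0.0576), while its range was 0.25.

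**Figure D2:**
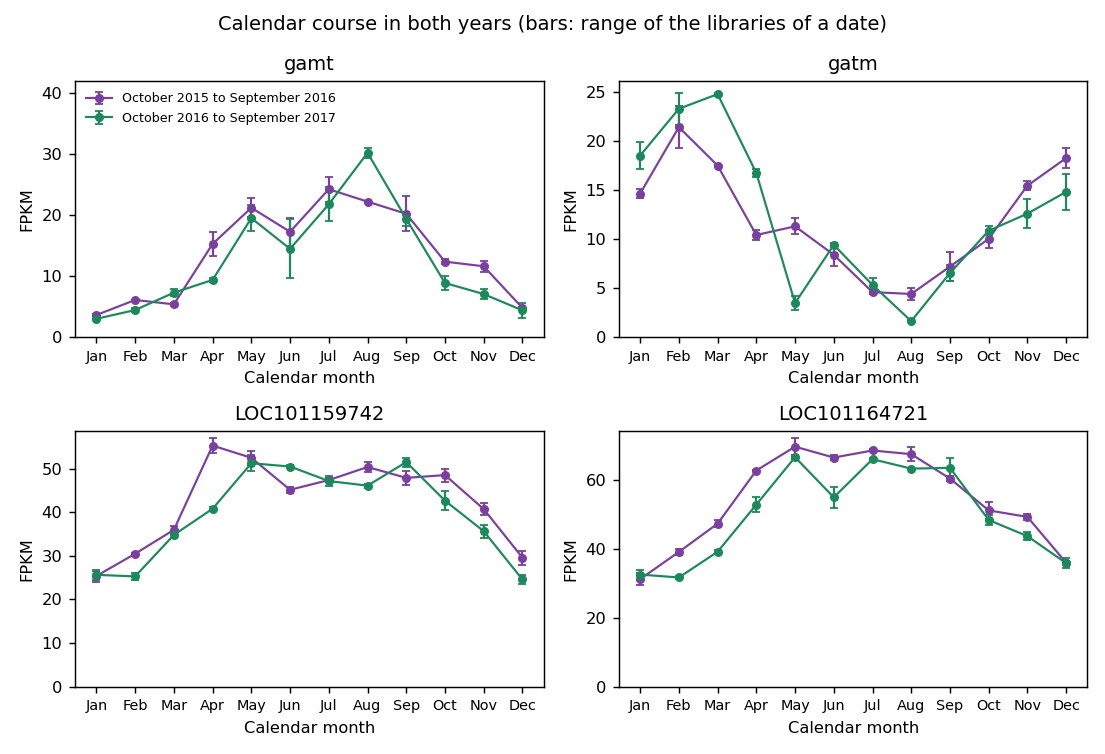
FPKM (vertical axes) of gamt, gatm, the creatine transporter 1 gene LOC101159742 and the mitochondrial U-type kinase LOC101164721 by calendar month (horizontal axes), for October 2015 to September 2016 (purple) and October 2016 to September 2017 (green). Points are date means and bars reach to the libraries of each date. In both years gamt, LOC101159742 and LOC101164721 were low from December to February, when gatm was between 14.6 and 23.3 FPKM.

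Among the creatine kinases, the more abundant mitochondrial gene, LOC101164721, was higher in summer. Its summer dates ran from 55.1 to 68.7 FPKM with a median of 66.4, and its winter dates from 31.3 to 39.2 with a median of 34.3. All summer dates lay above all winter dates, and the log2 difference was 0.89 ± 0.11 (adjusted p = 1.62e-06). The cytosolic B-type genes are given beside it, and the difference between the classes was not tested. LOC101167262 had a summer median of 209 FPKM (167 to 274) and a winter median of 255 (173 to 339), and ckb a summer median of 153 (102 to 177) and a winter median of 175 (150 to 200). For both, the groups overlapped, and the log2 differences of -0.20 ± 0.18 (adjusted p = 0.374) and -0.21 ± 0.12 (adjusted p = 0.127) did not pass the threshold. The difference of ckb passed it with median ratio scaling (-0.27, adjusted p = 0.0343). It also did with libraries as separate samples (-0.21, adjusted p = 0.0249) and with a replicate block as well (-0.21, adjusted p = 0.0224). The fits with separate libraries and with the block take the libraries of a date as independent. They called 65.7% and 65.5% of all genes tested, against 54.5% in the main fit. With date as a random effect the difference of ckb did not pass.

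The make-up of the kinase transcripts by season is given as a description, with no test. The 3 mitochondrial genes held 15.9 ± 2.65% of the summed creatine kinase FPKM in summer, with dates between 13.2 and 20.1%, and 7.99 ± 0.79% in winter, with dates between 6.94 and 9.15%. The 2 B-type genes held 82.9 ± 2.51% in summer and 91.0 ± 1.2% in winter. The sum over all 8 kinase genes was 442 ± 64.5 FPKM in summer and 466.2 ± 77.6 in winter. These shares rest mainly on LOC101164721, LOC101167262 and ckb. Reads shared between near-identical copies may have been divided among the kinase genes by the authors' quantification, so the split within a class is less certain than its sum.

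**Figure D3:**
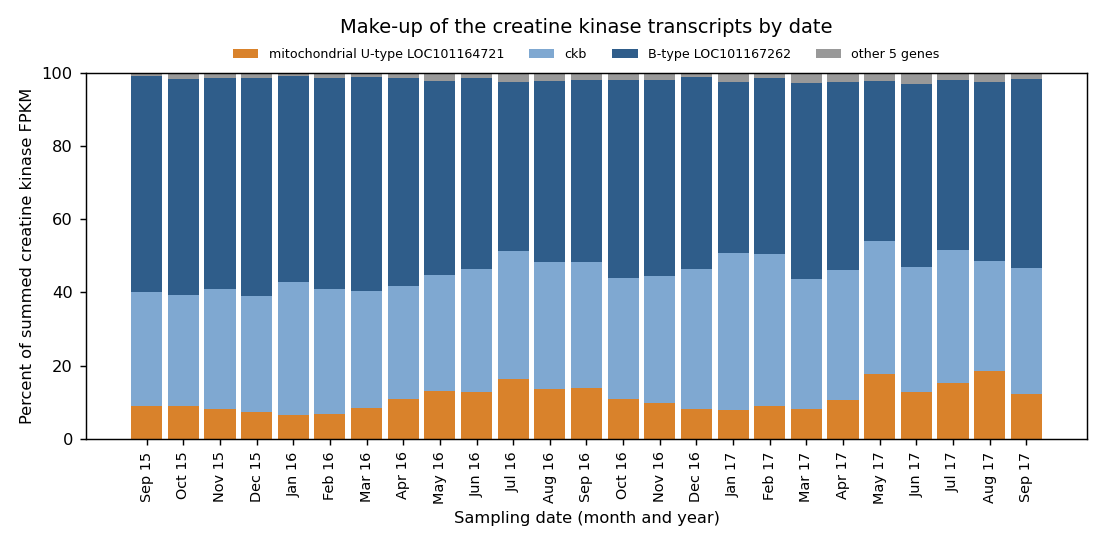
Percent of the summed FPKM of the 8 creatine kinase genes (vertical axis) on each of the 25 sampling dates (horizontal axis), from date means, for LOC101164721, ckb, LOC101167262 and the other 5 genes together. The share of the mitochondrial gene LOC101164721 widened in both summers and narrowed in both winters.

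The less abundant U-type gene, LOC101156742, varied more between libraries of a date than between date means, with SDs of 0.64 and 0.47 on the log2 scale. A date mean averages 2 libraries, so the second SD also holds part of the spread between libraries. The libraries of LOC101156742 in October 2016 differed by 1.80 on that scale. Summer dates ran from 1.58 to 5.28 FPKM with a median of 3.24, winter dates from 0.88 to 3.23 with a median of 1.76, and 3 of 6 summer dates lay above every winter date. The log2 difference of 0.64 ± 0.21 passed the threshold (adjusted p = 0.0120), as did an annual range of 0.74 ± 0.22 with a peak on 19 June (adjusted p = 0.0190). From July 2016 on the summer difference was 1.08 (adjusted p = 0.000632). Summer 2016 differed from the first winter by 0.22 on the log2 scale, and summer 2017 from the second winter by 1.06. Leaving out replicate 2 of December 2015 ended both calls (adjusted p = 0.0722 and 0.0976). The annual call was also lost without replicate 1 of June 2016 (0.0582), replicate 1 of October 2016 (0.0972), replicate 2 of November 2016 (0.0574) or the date of May 2016 (0.0511), each an adjusted p.

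M-type kinase, the form of skeletal muscle, was low in this block. LOC101163677 had summer dates between 2.63 and 8.68 FPKM with a median of 4.65 and winter dates between 1.97 and 6.38 with a median of 3.25. The groups overlapped, and the log2 difference of 0.42 ± 0.25 did not pass the threshold (adjusted p = 0.147). LOC101166239 stood at or below 0.34 FPKM on every date before January 2017, when its libraries reached 0.73 and 2.95 FPKM, and was at 1.03 in February and 0.94 in March 2017. Of 26 skeletal muscle marker genes matched, 22 averaged under 1 FPKM. The sum of all 26 ran from 35.1 to 49.6 FPKM in summer and from 12.4 to 26.5 in winter, without overlap. In summer most of it was myoglobin (mb), the oxygen-binding protein of muscle. The mb level averaged 29.0 ± 3.88 FPKM on the summer dates and 9.44 ± 5.02 on the winter dates. The other 25 summed to 8.94 to 22.5 FPKM in summer and 5.93 to 15.4 in winter, and the part of either sum in the M-type values was not tested. The S-type mitochondrial gene LOC101158039 ran from 0.22 FPKM in April 2017 to 1.2 in August 2016.

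**Figure D4:**
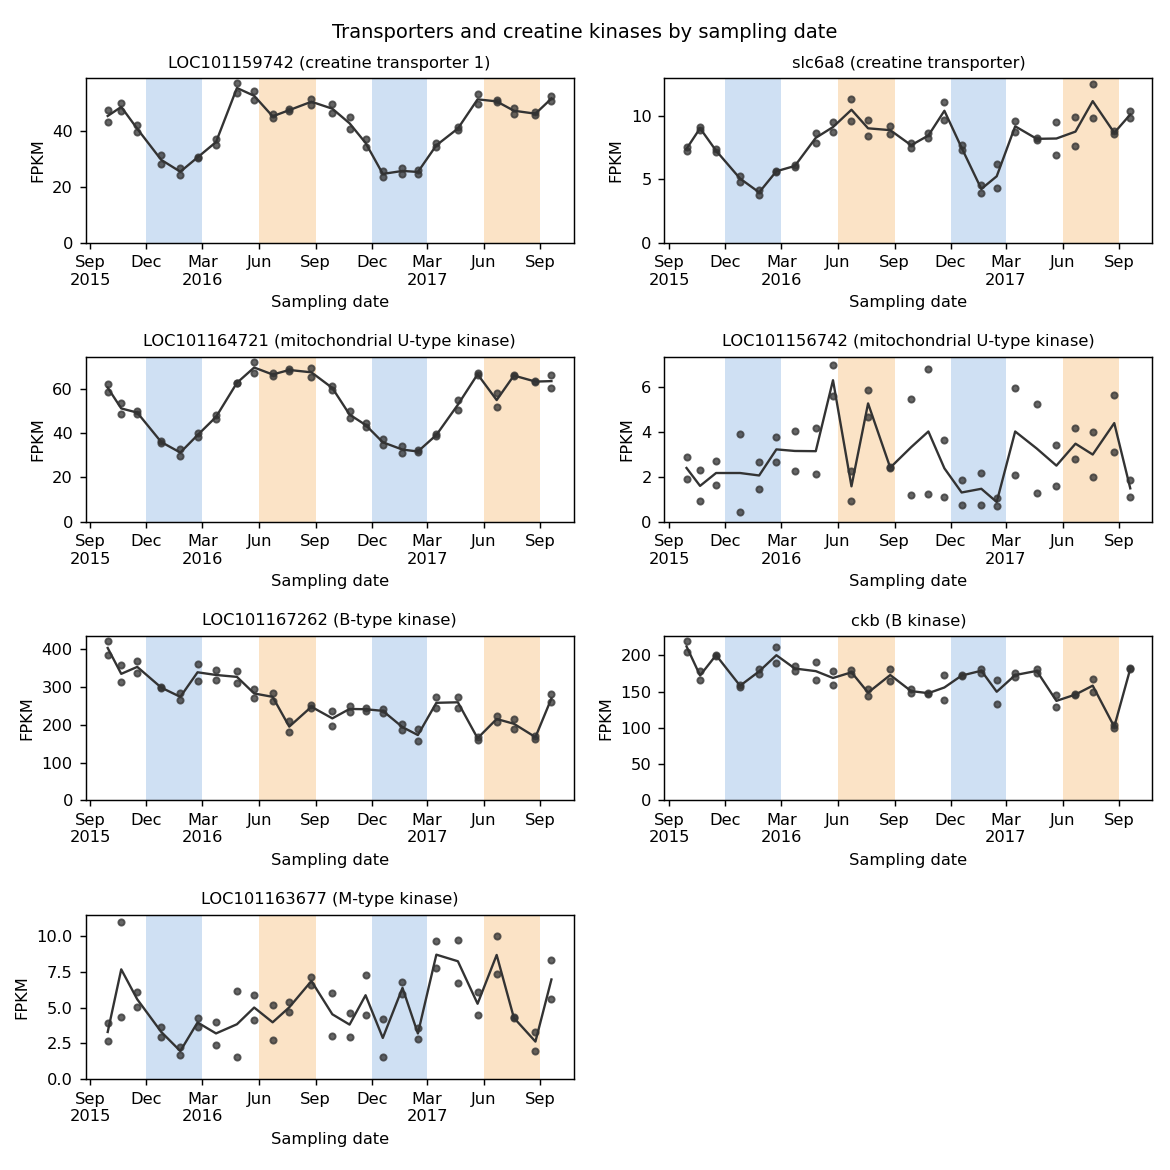
FPKM (vertical axes, each from 0) of the creatine transporter genes and of the 5 kinase genes tested, by sampling date (horizontal axes). Points are libraries, lines join the date means, blue bands mark December to February and orange bands June to August. LOC101159742, slc6a8 and LOC101164721 dip in both winters, LOC101167262 is lower in the second year, and the libraries of LOC101156742 and LOC101163677 scatter widely.

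In June to August against December to February, 6 of 9 tested members were called, against 54.5% of all genes tested. Of these, 5 were higher (all genes 31%) and gatm was lower (all genes 23.5%). Within each year the 3 summer dates lay beyond all 3 winter dates for gamt, gatm, LOC101164721, LOC101159742 and slc6a8. The share of all genes tested whose dates separate in this way, within a year or over both, was not computed. The log2 difference was 1.94 for gamt in the first year and 2.17 in the second, and for gatm -1.53 and -1.81. For LOC101164721 it was 0.92 and 0.86, for LOC101159742 0.73 and 0.90, and for slc6a8 0.83 and 0.68.

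Months of like day length on either side of midsummer were compared next, August to October (7 dates) against February to April (6 dates). These months were paired by day length alone, so the direction of its change and water temperature cannot be told apart here. The August and February dates are also part of the summer and winter groups, so the comparisons share samples. Of 9 members, 4 were called, against 22% of all genes tested, with 3 higher (all genes 12.9%) and gatm lower (all genes 9.06%). In falling days gamt ran from 8.87 to 30.2 FPKM with a median of 19.4, and in rising days from 4.43 to 15.3 with a median of 6.67. Of the falling dates, 4 of 7 lay above every rising date, and the log2 difference was 1.11 ± 0.27 (adjusted p = 0.00782). The gatm level was between 1.62 and 11.1 FPKM in falling days with a median of 7.18, and between 10.4 and 24.8 in rising days with a median of 19.4. Here 5 of 7 falling dates lay below every rising date, with a log2 difference of -1.37 ± 0.29 (adjusted p = 0.00417) that ranks 40 by size among all genes tested.

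Smaller differences of the same sign as in summer were found for LOC101164721 (0.40 ± 0.13, adjusted p = 0.0267) and LOC101159742 (0.39 ± 0.13, adjusted p = 0.0333). For LOC101164721, 3 of 7 falling dates lay above every rising date, and for LOC101159742 none did, since April 2016 was its highest date. The call of LOC101164721 was lost without the date of February 2016, August 2016, February 2017 or March 2017 (adjusted p from 0.0557 to 0.0898). That of LOC101159742 was lost without any of these 4 or without March 2016, September 2016 or September 2017 (adjusted p from 0.0519 to 0.112). The difference of slc6a8 was 0.27 ± 0.15 (adjusted p = 0.204), and it passed the threshold with libraries as separate samples (adjusted p = 0.0489) and with the replicate block (0.30, adjusted p = 0.0381). LOC101156742, LOC101167262, ckb and LOC101163677 had differences between -0.14 and 0.01 that did not pass the threshold, except that ckb did with the replicate block (-0.21, adjusted p = 0.0310). The fits with separate libraries and with the replicate block take libraries of a date as independent. Each called 42.1% of all genes tested, against 22% in the main fit.

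**Figure D5:**
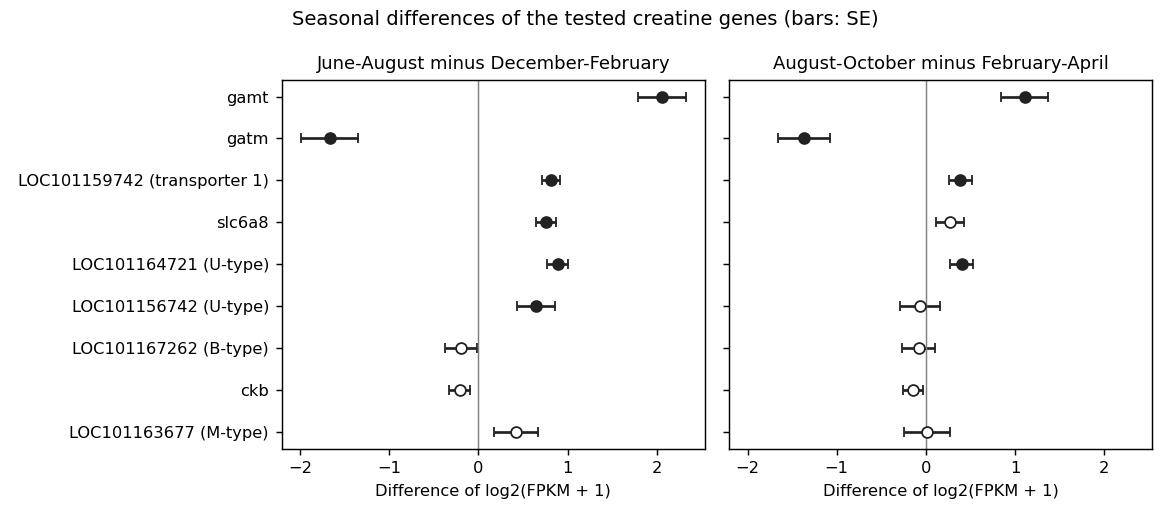
Difference of log2(FPKM + 1) with its SE (horizontal axes) for the 9 tested members (vertical axis), for June to August minus December to February (left) and August to October minus February to April (right). Filled points have an adjusted p under 0.05. On the left gamt is highest at 2.06 and gatm lowest at -1.67, and both lie nearer to 0 on the right, at 1.11 and -1.37.

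The B-type kinase LOC101167262 was lower in the second year than in the first. Its dates ran from 195 to 353 FPKM with a median of 290.5 in the first year (October 2015 to September 2016) and from 164 to 270 with a median of 226 in the second. Lower date means were already seen within the first year. Every date mean to June 2016 was at 274 FPKM or more, and every date mean from July 2016 on at 270 or less. Single libraries overlapped across that cut, with 263 FPKM in June 2016 and 280 in September 2017. The share of all genes tested that separate at July 2016 was not computed. A step at July 2016 was not itself tested. LOC101167262 was lower in the second year in 10 of 12 calendar months, with a log2 difference of -0.40 ± 0.09 (adjusted p = 0.0113). That p-value measures the spread between dates, not that between years. The months not lower were July (195 FPKM in 2016, 203 in 2017) and September (217 and 270). The winter means were 304 ± 32.8 and 201 ± 32.6 FPKM (SD, n = 3 dates each). This was 1 of 9 members called, against 12% of all genes tested, with 3.01% called higher and 8.97% lower. Of all genes called, 25.1% were higher in the second year, and 46.9% with quantile normalization or median ratio scaling, under which the difference of LOC101167262 was -0.30 and -0.34. Also lower in 10 of 12 months, without passing the threshold, were gamt (-0.19 ± 0.09, adjusted p = 0.171) and LOC101164721 (-0.12 ± 0.05, adjusted p = 0.0983), and LOC101159742 was lower in 9 (-0.10 ± 0.05, adjusted p = 0.198). From October to June alone gamt (adjusted p = 0.0366) and LOC101164721 (adjusted p = 0.0389) passed it. In that fit 3 of 9 members were called, against 30.3% of all genes tested. The other B-type gene, ckb, differed by -0.16 ± 0.08 (adjusted p = 0.185), and gatm by -0.10 ± 0.15 (adjusted p = 0.701).

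Markers of several cell types and regions differed between the years too. Of all genes tested, 3.01% were called higher and 8.97% lower in the second year. Oligodendrocyte markers were lower in the second year in 6 and higher in 0 of 14 tested, with a median sum of 981 FPKM in the first year (689 to 1375) and 665 in the second (362 to 956). Radial glia and astroglia markers were lower in 4 and higher in 0 of 12 (median sum 2701 and 2017 FPKM, with dates from 2051 to 3642 and from 1733 to 2813). Neuron markers were lower in 6 and higher in 0 of 15 (1434 and 1362 FPKM, 1294 to 1689 and 1133 to 1461), and ventral telencephalic markers higher in 4 of 7 (51.9 and 66.0 FPKM, 45.2 to 74.6 and 59.5 to 77.5). Endothelial markers were lower in 3 and higher in 1 of 9, and hypothalamic markers lower in 1 and higher in 2 of 5. Skeletal muscle markers were lower in 1 of 4, and 0 of 7 pituitary and 0 of 2 erythrocyte markers were called. The part of any of these lists in the lower level of LOC101167262 was not tested.

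The shape of the annual curve was compared between the years as well. By limma's F test 0 of 9 members were called, against 0.0303% of all genes tested. The unadjusted p of limma was under 0.05 for 1 member, LOC101163677 (adjusted p = 0.210). With the libraries taken as separate samples that gene was called (adjusted p = 0.0352), as were 19.6% of all genes tested. That fit takes the 2 libraries of a date as independent, which they are not.

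Genes that supply the methyl group and the amino acids of creatine were described from a list of 34 matched genes, 28 of them tested. In summer against winter 4 were higher (all genes 31%) and 11 lower (all genes 23.5%), so 15 of 28 were called where 54.5% of all genes were, with a median log2 difference of -0.14 against 0.06 over all genes tested. S-adenosylmethionine synthase makes the methyl donor of gamt, and its genes did not move together. LOC101171015 (0.82 ± 0.13, adjusted p = 1.45e-05) and LOC101170772 (1.16 ± 0.19, adjusted p = 1.88e-05) were higher in summer. The first rose from 4.39 ± 0.73 to 8.5 ± 0.90 FPKM and the second from 0.88 ± 0.31 to 3.26 ± 0.82. The most abundant synthase gene, LOC101160913, named after its values were seen, was lower in summer, at 39.6 ± 5.47 FPKM against 55.0 ± 8.86 in winter (-0.46 ± 0.13, adjusted p = 0.00430). So was mat2b, the regulatory subunit, also named after its values were seen (12.4 ± 1.23 against 19.8 ± 3.81 FPKM, -0.61 ± 0.12, adjusted p = 0.000170). Methionine synthase mtr, which regenerates methionine, was lower (-0.73 ± 0.09, adjusted p = 1.72e-06), as was dld, the dihydrolipoamide dehydrogenase of the glycine cleavage system and other complexes (-0.72 ± 0.12, adjusted p = 2.99e-05).

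Other enzymes and channels of ATP exchange gave a mixed picture in summer against winter. Of 17 tested, 4 were higher (all genes 31%) and 5 lower (all genes 23.5%), with a median of -0.11 (all genes 0.06). The lower ones included nme3, a nucleoside diphosphate kinase (5.97 ± 1.95 FPKM in winter, 1.19 ± 0.18 in summer, log2 difference -1.59 ± 0.22), the mitochondrial adenylate kinases ak3 (-1.24 ± 0.18) and ak4 (-0.90 ± 0.14), and the ADP/ATP translocase LOC101163991 (-0.58 ± 0.09). Relatives of the creatine transporter in the SLC6 family were called lower in 4 and higher in 1 of 10 tested, a share near the 54.5% of all genes, with a median of -0.27. Among them, slc6a17, a synaptic vesicle transporter of neutral amino acids, averaged 104.5 ± 10.7 FPKM in winter and 60.1 ± 5.92 in summer (-0.79 ± 0.10, adjusted p = 1.02e-06). The GABA transporter slc6a11 (-0.83 ± 0.21) and the taurine transporter LOC101175313 (-0.29 ± 0.09) were also lower, while the GABA transporter 2 gene LOC101167601 was higher (0.32 ± 0.12).

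Likeness to gamt was described by Pearson's r of the date means of log2(FPKM + 1), over 25 dates. The genes most like gamt were sought among 8791 tested genes with a symbol other than a LOC number. They were aox1, aldehyde oxidase (r = 0.972), klhdc2 (0.965), olig1, a transcription factor of the oligodendrocyte lineage (0.961), ccpg1 (0.961) and eif2s3, a subunit of translation initiation factor 2 (0.960). All share the libraries and the calendar with gamt. From winter to summer olig1 went from 0.61 ± 0.24 to 4.71 ± 1.36 FPKM. Of 14 oligodendrocyte markers tested, 6 were higher (all genes 31%) and 1 lower (all genes 23.5%) in summer. Their summed levels were 642 to 1040.2 FPKM in summer with a median of 723, and 444 to 960 in winter with a median of 718. The part of these markers in the gamt values was not tested. For gatm the most alike were lancl1 (0.924), sub1 (0.913), mfsd3 (0.910), klc2, a kinesin light chain (0.909), and amd1, adenosylmethionine decarboxylase (0.907), which turns S-adenosylmethionine towards polyamines. The amd1 level was 154 FPKM in winter and 41.4 in summer.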

How the data were processed

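Strand-specific paired-end mRNA libraries were made by the authors, per the labels' protocols. The authors deposited FPKM values for 23455 genes and 50 libraries. Bowtie2 2.2.5 and RSEM 1.2.12 appear, per the submitters' processing notes, without a stated use. The build is not given in the sources used here, nor is the annotation. Names came from the file, and all 12 members were found in the RefSeq gene table (assembly ASM223467v1).

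The value log2(FPKM + 1) was averaged over the 2 libraries of a date, and the 16493 genes averaging 1 FPKM or more were fitted with limma 3.58.1 (R 4.3.3, variance trend). Benjamini-Hochberg adjustment of the p-values covered all genes tested, and the threshold was 0.05. The fits used 25 dates, or 24 with the calendar month as a block between years. The seasonal contrasts used means of 3-month blocks. The models were tested on simulated data. Figures were drawn with matplotlib 3.10.9.

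All members are named. Of each other list, up to 4 genes with the smallest adjusted p in summer against winter are named. For gamt and gatm the 5 genes most like each are named, with LOC symbols left out of that search. The marker lists cover skeletal muscle, oligodendrocytes, radial glia, neurons, endothelium, erythrocytes and the block's regions. The members and lists were chosen with earlier results of these data known.

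Low values were compared with multiples of a step fitted to each gene, and genes that fitted poorly were left out. Of the values of the 234 genes kept, 80.7% lay within 0.1 of a whole number. Reads were thus not recovered and no counting interval is given. A value of 0 is reported as listed. The replicate numbers carry no stated pairing; over 276 pairs of dates, deviations of same-numbered libraries correlated between -0.11 and 0.14. Both September 2015 titles carry the number 1, so these libraries were numbered in accession order. Pseudocount, filter, scaling, date subset, library unit, replicate block and left-out libraries and dates were varied.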

Additional observations from a re-analysis of the deposited data

Results flagged for a closer look

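Within groups of 6 or 7 dates, the gap of an extreme date to its neighbour was taken as a share of the group's range. Shares were computed from date means of log2(FPKM + 1), not from the FPKM printed below. The gap was examined in 36 groups of members, where chance marks about 1 in 20 groups. It exceeded Dixon's 95% critical value in 3. The lowest summer date of ckb was August 2017, at 102 FPKM against 146 to 177 on the other 5 dates (share 0.655). For LOC101164721 it was June 2017, at 55.1 FPKM against 63.5 to 68.7 (share 0.641). In rising days LOC101156742 was lowest in February 2017, at 0.88 FPKM against 3.15 to 4.03 (share 0.775).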

How the results depend on the processing

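The summer-winter calls of gamt, gatm, LOC101164721, LOC101159742 and slc6a8 kept direction and threshold under every alternative run. Annual calls of these genes kept the threshold in every run, while their peak dates were not compared between runs. Counts of called members stayed at 5 to 7 for both comparisons. For falling against rising days alternatives gave 4 to 6 members, and leaving out dates 2 to 4; left-out dates gave 1 to 2 between years and 1 to 2 for the 6-month wave. Between years, October to June alone gave 3, libraries as separate samples 5, the same with a replicate block 5 and date as a random effect 2. The 6-month wave gave 4 with separate libraries and 5 with the replicate block, and the difference of annual curves 1 and 1. In all genes, the between-year calls numbered 1975, against 4992 for October to June, 5984 for separate libraries and 5952 with the block. Separate libraries and the block gave 6951 and 6940 against 3626 calls for falling days, 4602 and 4555 against 1410 for the wave, and 3235 and 3201 against 5 for the difference of curves; a date random effect gave 453 there, and no filter 0. No pairing of libraries is stated for the replicate numbers that the block uses. LOC101156742 lost its annual call on dates to June 2016 (0.70, adjusted p = 0.178) and with a date random effect (adjusted p = 0.251), and its summer call there (adjusted p = 0.171) and when January to March was compared with July to September (0.29, adjusted p = 0.316). Signs reversed only below the threshold. In falling against rising days LOC101163677 was -0.026 with quantile normalization, -0.023 with median ratio scaling, -0.061 with a step at July 2016 and -0.35 from July 2016 on. There LOC101167262 was 0.041 with the step and LOC101156742 0.21 from July 2016 on, and in summer against winter LOC101167262 was 0.033 from July 2016 on. Leaving out libraries or dates gave -0.11 to 0.17 for LOC101163677, -0.26 to 0.061 for LOC101156742 and -0.21 to 0.026 for LOC101167262 in falling days, and -0.17 to 0.025 for gatm between years. The cause was not tested. FPKM give no read totals, so low members are less certain.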

Other observations

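Marker genes of the other cells in the block are given as values. Of all genes tested, 31% were called higher and 23.5% lower in summer against winter. In summer against winter 8 of 15 tested neuron markers were higher and 0 lower by limma, and 2 of 12 radial glia and astroglia markers were higher and 2 lower. Endothelial markers were higher in 5 and lower in 1 of 9 tested, erythrocyte markers higher in 2 of 2, and pituitary markers higher in 4 and lower in 0 of 7. Hypothalamic markers were higher in 1 and lower in 2 of 5, ventral telencephalic markers higher in 3 of 7, and skeletal muscle markers higher in 3 and lower in 1 of 4 tested. Summed, the neuron markers ran from 1267 to 1689 FPKM in summer and from 1133 to 1406 in winter.

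Fitted without a filter on low values, the S-type kinase LOC101158039 differed by 0.28 ± 0.11 between summer and winter (adjusted p = 0.0475). Its annual range of 0.29 ± 0.11 did not pass the threshold (adjusted p = 0.0972). The M-type kinase LOC101166239 had an annual range of 0.51 ± 0.15 (adjusted p = 0.0234). Its summer difference of -0.35 ± 0.16 did not pass (adjusted p = 0.0784). The remaining comparisons of both genes did not pass either, and their values were mostly below 1 FPKM. Without the filter LOC101169907 was not called in any of the 6 comparisons, with adjusted p between 0.409 and 0.955.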
